A study of Homo sapiens with 21 samples.

Results

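SH-SY5Y is a human neuroblastoma line whose cells carry the programme of noradrenergic neurons and extend neurites when given retinoic acid and brain-derived neurotrophic factor (BDNF). The comparison described here is of the compound AG494 against its vehicle in wild-type (WT) SH-SY5Y cells, with 3 Affymetrix PrimeView arrays of AG494-treated cells (WT_AG494) and 3 of vehicle-treated cells (WT_DMSO), 6 of the 21 arrays of the study. The arrays were chosen by their labels alone. All cultures, controls included, had first been exposed for 3 to 4 days to BDNF (50 ng/mL) and retinoic acid (10 µM), and then to a compound or to 0.1% DMSO for 72 h. The labels give no dose of any compound. Arrays of 4 other groups of 3 are used for reference: WT cells given the compounds labelled NOSCA (WT_NOSCA) or PALBO (WT_PALBO), and SH-SY5Y cells labelled as carrying the APP mutation V717F, with vehicle (APP_DMSO) or AG494 (APP_AG494), called APP cells below. The remaining 3 arrays, of APP cells given NOSCA (APP_NOSCA), entered the statistical fit and the correlations between arrays of a run but no comparison. The labels do not say how the mutation was introduced or whether the APP cells are a single clone, and the vehicle was shared by every group.

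AG494 belongs to the tyrphostins, small molecules that inhibit tyrosine kinases, and is known as an inhibitor of the epidermal growth factor (EGF) receptor. That receptor, once it has bound a ligand, passes its signal through RAS and the kinase ERK to transcription of early genes and of feedback inhibitors such as the Sprouty proteins. Retinoic acid and BDNF move neuroblastoma cells from division towards a neuronal state, and ERK also lies downstream of the BDNF receptor.

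Every value below is a log2 intensity as the authors normalised it, or a difference of such values, so that a difference of 1 is a doubling. The medians of the 6 arrays lay between 7.88 and 7.96. By the numbers in their titles the arrays form 3 runs, each holding every group once, and arrays of a run deviated from their group means together (63 pairs of arrays, correlations 0.226 to 0.685), so that the run entered the limma fit as a block. Values of a group are given in the order of the 3 runs. Nothing in the labels ties a run to a separate culture, so that the p-values measure the spread between these arrays. Most markers of the noradrenergic lineage and of neurons were high in both groups. PHOX2A, HAND2, GATA3, ISL1, DBH, CHGA and STMN2 had means above 10 in both, and none of the 7 was called. TH, the tyrosine hydroxylase gene and another marker chosen, was the exception. It lay below 10 in all 6 arrays and was lower under AG494 in each run, without being called. No member of the marker lists of immune cells (16 measured) or of glia (15 measured) was called, and the mean level of the immune list was 5.88 to 5.92 in the vehicle arrays and 5.85 to 5.91 under AG494. Of 16 markers of fibroblasts and endothelium 1 was higher, FAP, a surface protease, by 0.53, while the mean level of that list was 8.10 to 8.30 under vehicle and 8.25 to 8.38 under AG494. The part of other cells in the results was not tested.

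AG494 raised 197 genes and lowered 161 in WT cells, led upwards by the chemokine CCL2 and the lysosomal glycoprotein GPNMB and downwards by the histone gene H2AC25. These 358 genes at an adjusted p under 0.05 were 1.97% of the 18132 genes tested, 1.09% higher and 0.888% lower. Most changes were small: 47 of the rises and 29 of the falls reached 1.5-fold, the median rise was 0.45 and the median fall -0.39, and the median of all genes was -0.0053. The arrays of the groups did not overlap for 161 of the 197 risers and 136 of the 161 fallers, where 5.53% of all genes lay apart upwards and 5.76% downwards. The calls came from these same arrays, so that this separation is no separate support for them. The number of genes depended on the block and on single arrays. Without the block 46 genes passed, 0.254% of those tested (30 higher, 16 lower), all of them among the 358 and in the same direction. It was 129 without the first WT_DMSO array, 238 without the second and 538 without the third, 174 without the second WT_AG494 array and 79 without the third, 30 without run 1, 16 without run 2, and 32 when only the 6 arrays were fitted.

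CCL2 encodes a chemokine that draws monocytes to tissue. It measured 8.44, 8.54 and 7.52 in the vehicle arrays and 10.61, 10.41 and 10.81 under AG494. The groups lay far apart, and the rise of 2.44 (SE 0.26, adjusted p = 0.0002) was 5.44-fold. GPNMB, a transmembrane glycoprotein of lysosomes and melanosomes, stood at 5.55, 5.18 and 5.56 under vehicle and at 6.82, 7.16 and 6.63 under AG494. That was a rise from the dim end of the scale, by 1.44 (SE 0.15, adjusted p = 0.0002), and all 5 of its probe sets were higher. VCAM1, the adhesion molecule that leukocytes bind on activated endothelium, went from 7.15, 7.71 and 8.13 to 8.54, 8.88 and 9.67. The runs differed in level in both groups, and the rise of 1.37 (SE 0.17, adjusted p = 0.000892) was similar within them, at 1.39, 1.17 and 1.54; without the block it did not pass (adjusted p = 0.11). CCL2, GPNMB, VCAM1 and the histone gene H2AC25 stayed called when any of the 6 arrays or any run was left out.

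The rises named here are the 15 largest called ones with every AG494 array above every vehicle array, a rule that leaves out MT1F (1.37), a metallothionein gene, and CFI (1.23), complement factor I, both called with overlapping arrays. After CCL2, GPNMB and VCAM1, MGP, an inhibitor of matrix calcification, rose by 1.15, CSRP1, an actin-associated LIM protein, by 1.13, IFI44, an interferon-induced gene, by 1.01, and NTNG1, a netrin-like adhesion protein of axons, by 0.98. HAS2, which makes hyaluronan, rose by 0.96, and CEMIP2, a surface protein described as a hyaluronidase, by 0.78. MAOB, the mitochondrial monoamine oxidase, measured 8.00, 8.05 and 7.71 under vehicle and 8.86, 8.86 and 8.75 under AG494, a rise of 0.90 (SE 0.14, adjusted p = 0.00308). SLC30A1, the exporter that moves zinc out of the cytosol, rose by 0.88, DGAT2, the last enzyme of triglyceride synthesis, by 0.80, NT5E, the ectonucleotidase that makes adenosine, by 0.79, CORIN, a membrane serine protease, by 0.77 and the nucleosome assembly gene NAP1L3 by 0.76. Of these 15 genes CCL2, GPNMB, CSRP1, MAOB, SLC30A1, DGAT2, NT5E and CORIN also passed without the block.

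H2AC25, an H2A histone gene, had the largest fall. It measured 10.84, 10.69 and 11.42 under vehicle against 9.55, 9.71 and 9.56 under AG494. Every AG494 array lay well below every vehicle array, and the gene fell by 1.37 (SE 0.14, adjusted p = 0.0002). Its single probe set is of a type shared by several transcripts, so that close H2A copies may contribute. Here too the 15 genes named were taken from the called falls without overlap between the groups. The rule leaves out larger falls in overlapping arrays: CHRND, a subunit of the muscle-type nicotinic receptor (-1.22), CDKN1C, an inhibitor of cyclin-dependent kinases (-1.19), ABTB3 (-0.98), INSM1 (-0.92) and GABRP, a subunit of GABA-A receptors (-0.90). CFI, CHRND, CDKN1C, ABTB3 and GABRP are named after their values were seen. SKAP2, an adaptor of SRC-family kinases, fell by 0.96. CD9, a tetraspanin of the cell surface, went from 11.26, 11.05 and 10.72 to 10.29, 10.28 and 9.97, and it fell by 0.83 (SE 0.14, adjusted p = 0.00506), with all 9 probe sets lower. The log2 fold change was -0.80 for TENT5B, a poly(A) polymerase whose other probe set did not go down, -0.79 for RAB20, a GTPase of endosomes and phagosomes, and -0.70 for GPRC5B, an orphan receptor. PRRX2, a homeobox gene, NTS, the neurotensin gene, and CCNA1, a cyclin gene, each fell by 0.65. TMCC3, LOC730098, ZNF204P, SCRG1, SHKBP1 and RFESD were the others of the 15, between -0.70 and -0.62. Among the 15 H2AC25, SKAP2, CD9, RAB20, TMCC3 and SHKBP1 passed without the block.

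**Figure D1:**
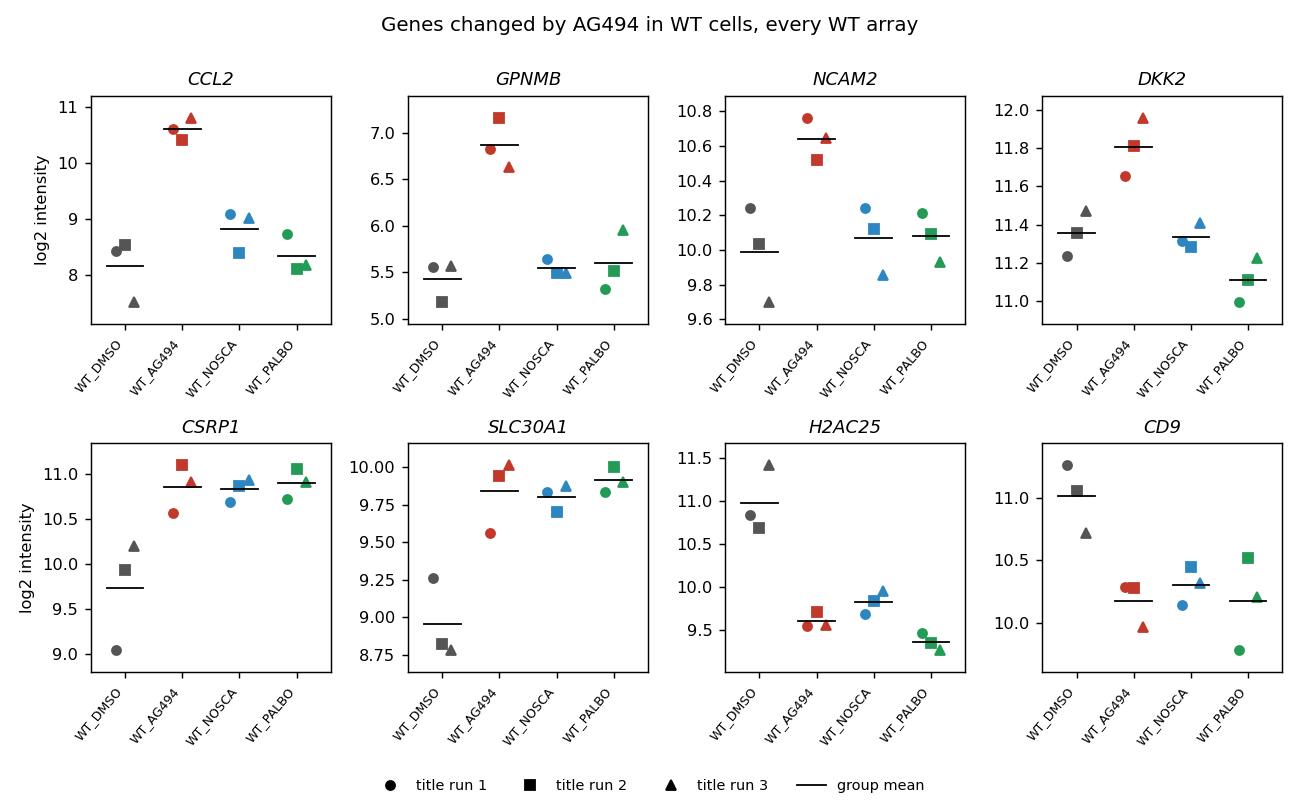
Log2 intensity (y axis) of 8 genes in every WT array, by treatment group (x axis), with a marker shape for each run of title numbers and a line at the group mean. CCL2, GPNMB, NCAM2 and DKK2 are high in the WT_AG494 arrays alone, whereas CSRP1, SLC30A1, H2AC25 and CD9 lie near the same level in all 3 compound groups and apart from WT_DMSO.

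Several of these genes stood at nearly the same level under the other compounds. NOSCA and PALBO against vehicle share the WT_DMSO arrays with AG494 against vehicle, so that these 3 differences are not independent, and a deviation of the vehicle arrays cannot be told apart from a response common to the compounds. For CSRP1 the difference from vehicle was 1.13 with AG494, 1.10 with NOSCA and 1.17 with PALBO; for SLC30A1 it was 0.88, 0.84 and 0.95, for H2AC25 -1.37, -1.15 and -1.62, and for CD9 -0.83, -0.70 and -0.83. The direct differences between AG494 and NOSCA were 0.03 for CSRP1 (95% interval -0.29 to 0.35), 0.04 for SLC30A1 (-0.25 to 0.32), -0.22 for H2AC25 (-0.51 to 0.07) and -0.12 for CD9 (-0.42 to 0.17). No dose is given, so that these compare the cultures as treated. Over the 197 risers the median difference from vehicle was 0.27 with NOSCA and 0.35 with PALBO, and over the 161 fallers -0.24 and -0.36.

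The direct test of AG494 against NOSCA called 6 genes (0.0331% of those tested), all of them higher under AG494 and all among the 197 risers. Apart from CCL2 and GPNMB these 6 were named because they passed that test, after their values had been seen. CCL2 measured 9.09, 8.40 and 9.02 with NOSCA, and AG494 was higher by 1.77 (95% interval 1.23 to 2.32, adjusted p = 0.0123). GPNMB measured 5.65, 5.49 and 5.49 with NOSCA, a difference of 1.32 (1.00 to 1.65, adjusted p = 0.00247). NCAM2, a neural cell adhesion molecule, stood at 10.24, 10.03 and 9.70 under vehicle, 10.76, 10.52 and 10.64 under AG494 and 10.24, 10.12 and 9.85 with NOSCA. Its AG494 arrays lay above all others of the WT cells, by 0.65 over vehicle and 0.57 over NOSCA (adjusted p = 0.036). DKK2, a secreted modulator of Wnt signalling, went from 11.23, 11.36 and 11.47 to 11.66, 11.81 and 11.96 and was at 11.32, 11.28 and 11.41 with NOSCA, 0.47 below AG494 (adjusted p = 0.00362). C2CD2 was higher by 0.36 and TMEFF2, a transmembrane protein with an EGF-like domain, by 0.65 (adjusted p = 0.0104 and 0.0457), and for each of them 2 of 3 probe sets were above vehicle. The number called against NOSCA was 1 without the third WT_AG494 array, 2 without the first or the second, 26 without the first WT_NOSCA array, 3 without the second, 2 without the third and 2 without the block. No gene passed in the lower direction, and 1676 genes had an unadjusted p under 0.05 in limma over both directions.

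Against PALBO, AG494 differed in 1577 genes (8.7%), 860 of them higher. Of the 197 genes raised by AG494, 57 were also above PALBO and 11 below it. CCL2 lay above PALBO by 2.26, GPNMB by 1.27 and DKK2 by 0.70, while MT1F, a metallothionein gene, differed from PALBO by -1.06. Both direct contrasts use the same AG494 arrays.

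APP cells gave AG494 a set of arrays of its own, 6 that are in neither WT group. There 4.72% of genes were called higher and 7.06% lower. Of the 197 WT risers 175 were above their vehicle in APP cells, and 90 were called higher, 45.7% of the WT risers and 10.5% of the APP risers. Of the 161 WT fallers 142 were below vehicle and 71 were called lower, 44.1% of the WT fallers and 5.54% of the APP fallers. The opposite call was made for 2 risers and 1 faller. CCL2 measured 11.01, 11.43 and 11.82 in APP_DMSO and 12.90, 12.80 and 13.01 in APP_AG494, so that it rose by 1.48 from a far higher level than in WT cells. GPNMB went from 5.58, 5.60 and 5.56 to 6.99, 6.81 and 7.16, by 1.41, close to the 1.44 of WT cells. VCAM1 rose by 1.49, MGP by 2.08, NT5E by 0.97, NCAM2 by 0.76 and DKK2 by 0.88, whereas CSRP1 (0.24), SLC30A1 (0.09), MAOB (0.24) and HAS2 (0.04) did not pass there.

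**Figure D2:**
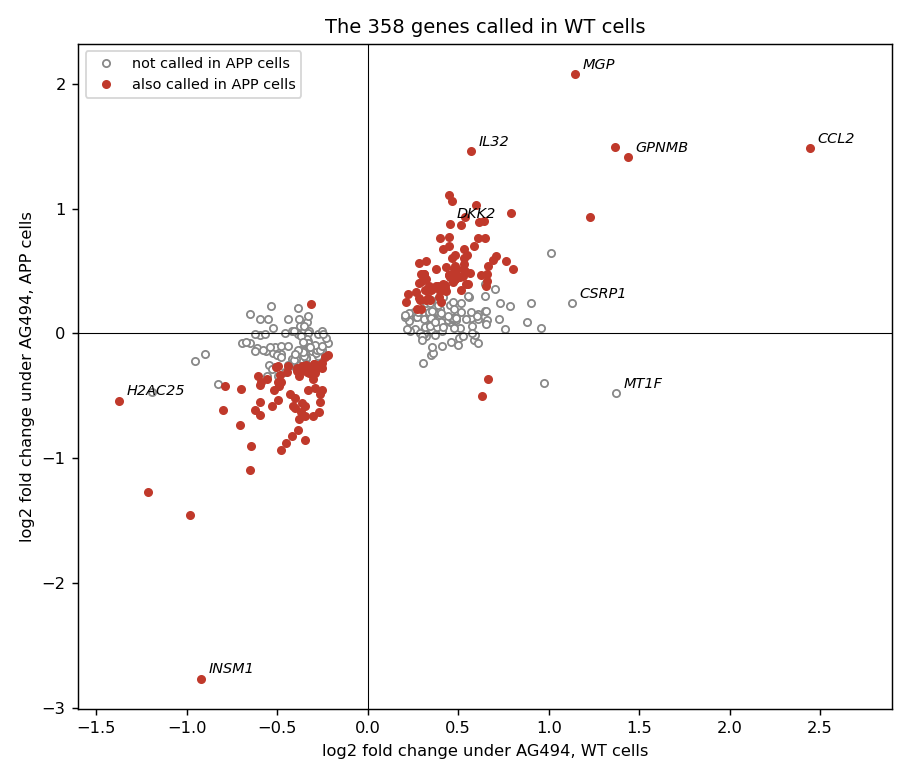
Log2 fold change under AG494 in WT cells (x axis) and in APP cells (y axis) for the 358 genes called in WT cells, each point a gene, filled where it was also called in APP cells. Most points lie at the lower left or the upper right; MT1F, higher in WT cells by 1.37 and at -0.48 in APP cells, lies apart, and INSM1 fell by 2.76 in APP cells.

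Transcripts of the EGF receptor system did not pass the test. EGFR itself was abundant, at 10.62, 10.66 and 10.97 under vehicle and 11.11, 10.86 and 11.09 under AG494, a difference of 0.27 (SE 0.11, adjusted p = 0.219) between overlapping groups. ERBB2 differed by 0.22, ERBB4 by 0.28 and ERBB3, near the dim end of the scale, by -0.17, and none of the 19 measured receptors and ligands was called. Among 35 early genes and feedback inhibitors of ERK signalling 4 rose and none fell, where 1.09% of all genes were called higher. The median of the list was 0.10. Against the shared vehicle it was 0.12 with NOSCA and 0.09 with PALBO, and -0.02 for AG494 directly against NOSCA. The 4 were SPRY1, SPRY2 and SPRY4, which restrain receptor signalling to ERK, and ETV1, a transcription factor of the ETS family. SPRY4 measured 11.36, 11.68 and 11.39 under vehicle and 11.79, 12.04 and 11.97 under AG494, higher in each array, and rose by 0.46 (SE 0.07, adjusted p = 0.00446). SPRY1 rose by 0.62 within overlapping groups, at 0.58, 0.62 and 0.64 in the runs, ETV1 by 0.57 and SPRY2 by 0.41. In APP cells SPRY1 (0.89), SPRY4 (0.45) and SPRY2 (0.40) rose and ETV1 (0.17) did not pass. None of the 4 passed in WT cells without the block (adjusted p = 0.55, 0.25, 0.15 and 0.39 for SPRY1, ETV1, SPRY4 and SPRY2), and leaving out any 1 of the 6 arrays kept SPRY4 and ETV1 alone. SPRY2 was 0.34 above the shared vehicle with NOSCA and 0.35 with PALBO.

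A few inflammatory genes rose, where 1.09% of all genes were called higher. Of 33 targets of the transcription factor NF-kappaB and chemokines 3 rose and none fell, with a median of 0.02 over the list. Besides CCL2 and VCAM1 the third was IL32, a cytokine gene, which measured 5.77, 5.82 and 5.82 under vehicle and 6.39, 6.47 and 6.27 under AG494. The gap between the groups was wide for the spread, and the rise was 0.57 (SE 0.09, adjusted p = 0.00369). Of 44 interferon-response genes 2 rose, IFI44 and IRF1, with a list median of 0.05. IRF1, a transcription factor induced by interferon and by NF-kappaB, went from 7.84, 8.23 and 8.06 to 8.53, 8.78 and 8.73, above every vehicle array and by 0.64 (SE 0.09, adjusted p = 0.00167). IFI44 was at 8.37, 8.76 and 9.10 with PALBO too, 1.15 over vehicle. Its rise did not pass without the block (adjusted p = 0.14) or in APP cells (0.65, adjusted p = 0.0774). It stayed called in 2 of the 6 fits that left out a single array. In APP cells AG494 raised 12 members of the first list and lowered 1, and raised 28 of the second, whose median there was 0.56. Of all genes 4.72% were called higher in APP cells and 7.06% lower. The difference in response between the genotypes was called for 7 interferon-response genes, all with the larger value in APP cells, and for 2 NF-kappaB targets. It was called for 1.26% of all genes.

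Of 18 measured genes of cholesterol synthesis 7 fell and none rose, and 17 had a value below 0. Among all 18132 genes 0.888% were called lower and 9424 had a value below 0. The pathway joins acetyl units to mevalonate, then isoprenoids, squalene and sterols, and its genes are switched on by the factor SREBP-2 when sterols in the endoplasmic reticulum run low. The list's median was -0.25, at -0.20, -0.22 and -0.35 in the runs, beside -0.0053 for all genes. The genes that fell lie at the start, middle and end of the pathway: ACAT2 (-0.29), which joins the first acetyl units, MVK (-0.34), mevalonate kinase, SQLE (-0.49), squalene epoxidase, MSMO1 (-0.35) and NSDHL (-0.26), which strip methyl groups from the sterol ring, HSD17B7 (-0.61), a sterol reductase, and DHCR7 (-0.53), the reductase of the last step.

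The 3 largest of these falls were seen in every array. HSD17B7 measured 9.42, 9.19 and 9.03 under vehicle and 8.89, 8.56 and 8.37 under AG494 (SE 0.08, adjusted p = 0.000874). DHCR7 went from 9.71, 9.73 and 9.85 to 9.31, 9.26 and 9.12 (SE 0.08, adjusted p = 0.00324). SQLE went from 10.69, 10.71 and 11.11 to 10.25, 10.37 and 10.41 (SE 0.08, adjusted p = 0.00324). In each case the highest AG494 array lay below the lowest vehicle array. HSD17B7, DHCR7 and SQLE stayed called without any single one of the 6 arrays, and of the 7 genes 3 did so without the third WT_AG494 array and 3 without the first WT_DMSO array. Without run 1 it was 1, without run 2 it was 0 and without run 3 it was 3. DHCR7 alone passed without the block, and HSD17B7 had an adjusted p of 0.14 there. MVD (-0.30, adjusted p = 0.0512) and IDI1 (-0.28, adjusted p = 0.053) missed the threshold narrowly. The values of FDPS (-0.19), HMGCS1 (-0.24), LSS (-0.21), LBR (-0.12), SC5D (-0.08), PMVK (-0.08), EBP (-0.07) and GGPS1 (-0.06) did not pass either. TM7SF2, a sterol reductase, was the single member above 0, at 0.16.

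**Figure D3:**
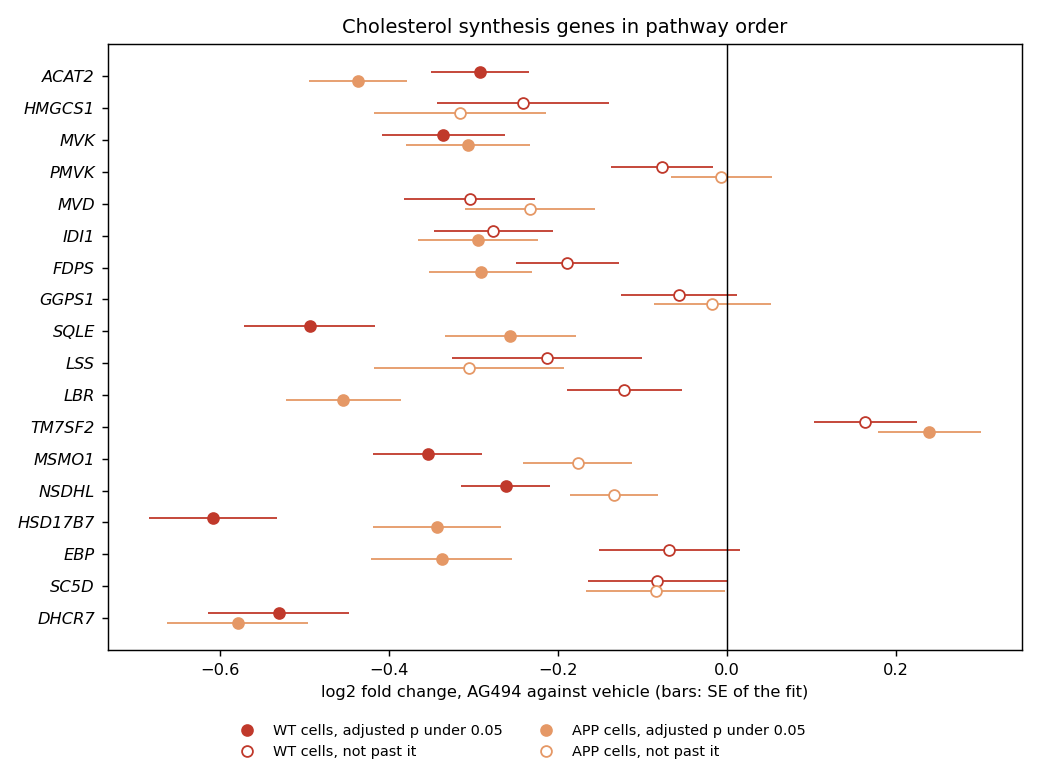
Log2 fold change under AG494 (x axis, bars the SE of the limma fit) of the 18 measured cholesterol synthesis genes in pathway order (y axis), in WT and in APP cells, filled where the adjusted p was under 0.05. All WT values but that of TM7SF2 lie left of 0, the farthest being HSD17B7 at -0.61 and DHCR7 at -0.53.

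In APP cells 9 of the 18 fell and 1, TM7SF2, rose, with a median of -0.29, where 7.06% of all genes were called lower and 4.72% higher. No member had a different response in the genotypes past the threshold. ACAT2 fell by 0.44 there, DHCR7 by 0.58 and LBR, a sterol reductase of the nuclear envelope, by 0.45. The list's median against the shared vehicle was -0.06 with NOSCA and -0.19 with PALBO. The direct difference between AG494 and NOSCA was -0.41 for HSD17B7 (95% interval -0.57 to -0.25, adjusted p = 0.0738) and -0.29 for NSDHL (-0.40 to -0.18, adjusted p = 0.0738), and no member passed. Against PALBO 4 members were lower under AG494 and 1 higher, where 8.7% of all genes were called in either direction.

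Of 19 measured genes that sense, take up and export sterols, SREBF1 and INSIG1 fell, where 0.888% of all genes were called lower. SREBF1 encodes the SREBP-1 factors, and measured 10.55, 10.42 and 10.65 under vehicle and 9.98, 10.24 and 10.25 under AG494, without overlap (-0.38, SE 0.07, adjusted p = 0.0133). With NOSCA and PALBO it was at -0.42 and -0.48 against the same vehicle. INSIG1, the sterol-dependent anchor of the SREBP complex, was at -0.37 in WT and -0.30 in APP cells, called in both, with -0.30 for NOSCA and -0.51 for PALBO. ABCA1, the cholesterol exporter, had the highest value of the list at 0.41 (adjusted p = 0.0969), and SREBF2 (-0.18), APOE (-0.28), INSIG2 (-0.15), TMEM97 (-0.15), SCARB1 (-0.13) and LPIN1 (-0.08) were below 0. ABCG1, NR1H3, NPC1, NPC2 and MYLIP were between -0.03 and 0.02, and SCAP (0.07), STARD4 (0.08), MBTPS1 (0.05), MBTPS2 (0.17) and SOAT1 (0.14) above. The list's median was -0.01. Of 15 genes of fatty acid synthesis FASN, the fatty acid synthase, fell by 0.40 and SCD, the stearoyl desaturase, by 0.26. Neither FASN nor SCD passed without the block, and in APP cells none of the 15 was called lower and 1 was called higher.

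The promoters of the cholesterol genes that fell are shown because these genes carry the list's calls. Genes controlled by SREBP factors often pair their sterol element with a site of the factor NF-Y, which binds CCAAT boxes. In RefSeq promoters of the build GRCh38.p14, 14425 measured genes had a promoter, 5 of the 7 genes among them, and CCAAT was searched on both strands (ATTGG on the other) in the 250 bases before the start. It was in all 5, with 17 matches, in 12 of 16 cholesterol synthesis promoters, and in 34.6% of all. The sterol element core CACCNCAC was in none of the 16 and in 4.85% of all. Each stretch runs 5′ to 3′ on the gene's strand, with the CCAAT or ATTGG letters in capitals; the pair in NSDHL that shares bases counts as 2 matches.
HSD17B7 (chr1:162790640-162790664, + strand): gcggactgagATTGGagggatcagc
DHCR7 (chr11:71448427-71448497, - strand): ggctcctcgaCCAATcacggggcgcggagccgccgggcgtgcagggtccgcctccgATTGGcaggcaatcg
MSMO1 (chr4:165327474-165327649, + strand): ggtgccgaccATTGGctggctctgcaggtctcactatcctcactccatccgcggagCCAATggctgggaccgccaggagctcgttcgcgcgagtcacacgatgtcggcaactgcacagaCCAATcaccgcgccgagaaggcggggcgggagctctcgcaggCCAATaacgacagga
MVK (chr12:109573574-109573762, + strand): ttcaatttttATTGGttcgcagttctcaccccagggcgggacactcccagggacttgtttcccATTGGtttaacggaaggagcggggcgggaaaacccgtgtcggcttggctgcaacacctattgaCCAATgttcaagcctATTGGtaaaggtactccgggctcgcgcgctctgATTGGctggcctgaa
NSDHL (chrX:152830825-152830993, + strand): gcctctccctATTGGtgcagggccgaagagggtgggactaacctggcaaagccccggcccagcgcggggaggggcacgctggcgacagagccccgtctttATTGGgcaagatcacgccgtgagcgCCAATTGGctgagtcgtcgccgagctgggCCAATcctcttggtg

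The matches lay 52 bases before the start in HSD17B7 and 94 and 48 before it in DHCR7. A match is a string of letters and shows no binding. CCAAT was also in 25 of 32 promoters of the mitosis list.

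Metal-binding genes rose in 4 of 29 members, with none lower and a list median of 0.04, where 1.09% of all genes were called higher. Metallothioneins are small cysteine-rich proteins that hold zinc and copper, and the factor MTF1 turns them and the zinc exporter SLC30A1 on when free zinc rises. SLC30A1 measured 9.27, 8.83 and 8.78 under vehicle and 9.56, 9.94 and 10.01 under AG494, apart in every array (0.88, SE 0.13, adjusted p = 0.00297). MT1F went from 7.31, 7.38 and 8.53 to 8.38, 9.24 and 9.71, so that the first AG494 array lay below the third vehicle array. Within the runs it was higher by 1.07, 1.86 and 1.18, a rise of 1.37 (SE 0.21, adjusted p = 0.0029). MT2A (0.61) and MT1X (0.57) also rose within runs and overlapped between groups. Of the 4, 2 stayed called without the third WT_AG494 array or the first WT_DMSO array, and none without run 2. Without the block SLC30A1 passed and MT1F, MT2A and MT1X had adjusted p-values of 0.094, 0.38 and 0.20.

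The chosen probe sets of MT1F, MT2A and MT1X are of types that match several transcripts, and the family's copies are close in sequence, so that the signal cannot be assigned to 1 copy. Of the 2 probe sets of MT1F 1 was higher and 1 lower. With NOSCA MT1F measured 9.12, 8.81 and 9.82, and with PALBO 9.97, 10.00 and 10.55, 1.51 and 2.44 above the shared vehicle. The difference of AG494 from NOSCA was -0.14 for MT1F (95% interval -0.58 to 0.30), -0.01 for MT2A (-0.25 to 0.23) and -0.04 for MT1X (-0.34 to 0.25). In APP cells MT2A rose by 0.76, while MT1F (-0.48), MT1X (0.00) and SLC30A1 (0.09) did not pass. MT1F was at 10.11, 9.94 and 10.25 in APP_DMSO, above all WT arrays of vehicle and AG494.

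The promoters of MT1X, MT2A and SLC30A1 are printed because these genes were called higher and MTF1 reads metal response elements near the start of such genes. The core TGCNCNC, searched on both strands in the same 250 bases, had 4 matches in MT1X, 7 in MT2A and 1 in SLC30A1, in capitals here.
MT1X (chr16:56682310-56682433, + strand): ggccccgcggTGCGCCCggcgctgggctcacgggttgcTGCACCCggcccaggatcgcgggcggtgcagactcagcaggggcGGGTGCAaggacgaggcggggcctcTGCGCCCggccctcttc
MT2A (chr16:56608334-56608583, + strand): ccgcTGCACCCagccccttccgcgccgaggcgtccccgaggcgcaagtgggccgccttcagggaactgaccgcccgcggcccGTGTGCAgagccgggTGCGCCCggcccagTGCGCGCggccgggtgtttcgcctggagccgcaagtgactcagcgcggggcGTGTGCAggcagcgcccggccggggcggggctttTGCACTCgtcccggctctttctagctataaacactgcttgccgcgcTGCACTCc
SLC30A1 (chr1:211579194-211579220, - strand): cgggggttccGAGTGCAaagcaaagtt

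The core is short and was in 53.8% of all promoters and in 12 of 22 of the list, so that a single match, as in SLC30A1, was common. These matches are a description and show no binding.

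**Figure D4:**
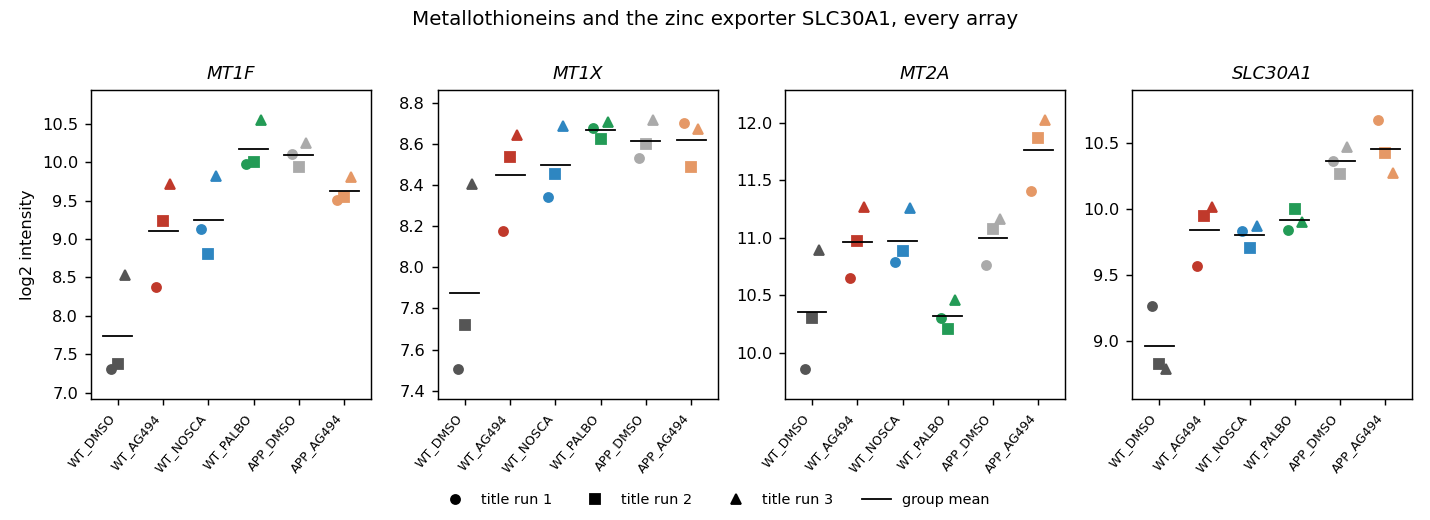
Log2 intensity (y axis) of MT1F, MT1X, MT2A and SLC30A1 in the arrays of 6 groups (x axis), with a marker shape for each run of title numbers and a line at the group mean. WT_DMSO is the lowest group for MT1F, MT1X and SLC30A1, and MT2A is as low with PALBO as with vehicle.

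Of 38 genes of mitosis 5 fell and none rose, and all 38 had a value below 0. Among all 18132 genes 0.888% were called lower and 9424 had a value below 0. The mitosis list's median was -0.21, at -0.10, -0.13 and -0.34 in the runs. The 5 were CENPE (-0.42) and KIF20A (-0.38), kinesins of the kinetochore and the midzone, CDC25C (-0.31), the phosphatase that starts mitosis, KIF2C (-0.27), a depolymerase of microtubules, and TOP2A (-0.25), which untangles chromosomes. KIF20A measured 10.99, 11.00 and 10.93 under vehicle and 10.77, 10.70 and 10.29 under AG494, below every vehicle array and lowest in run 3 (SE 0.09, adjusted p = 0.0274). Of the 5, 4 stayed called without the first WT_AG494 array, none without the second or the third WT_AG494 array or the first WT_DMSO array, and 1 without the second or the third WT_DMSO array. The list's median was -0.14 without the third WT_AG494 array and -0.12 without run 3. None of the 5 passed without the block, KIF2C with an adjusted p of 0.18 and CENPE with 0.34. Of 40 genes of DNA replication none was called, with a median of 0.004 and runs at 0.11, 0.05 and -0.16.

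In APP cells AG494 lowered all 38 mitosis genes, with a median of -0.58, and 31 of the 40 replication genes, where 7.06% of all genes were called lower. The response differed between the genotypes for 9 and 7 of them, where it did so for 1.26% of all genes. With PALBO the mitosis median was -0.59 against the shared vehicle, and with NOSCA it was -0.09. AG494 was called above PALBO in 29 of 38 genes and below it in none, where 8.7% of all genes were called in either direction. On bulk RNA, fewer dividing cells and less RNA per dividing cell cannot be told apart.

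Histone genes of the replication-dependent clusters had a median of -0.17 over 56 measured, with 3 lower, 1 higher and 52 below 0. The arrays of the groups did not overlap downwards for 34 of the 56. Over all 18132 genes 0.888% were called lower and 1.09% higher, 9424 had a value below 0, and 5.76% lay apart downwards. The list's median against the shared vehicle was -0.10 with NOSCA and -0.48 with PALBO. H2AC20 measured 13.55, 13.54 and 13.64 under vehicle and 12.82, 13.17 and 12.95 under AG494, a clean gap (-0.59, SE 0.09, adjusted p = 0.00198), and H3C11 fell by 0.52. H2BC21, an H2B gene, rose by 0.73, with 1 of its 3 probe sets higher and 2 lower. The 3 that fell, H2AC25 included, passed without the block and H2BC21 did not (adjusted p = 0.18). All 4 had similar differences from the shared vehicle with NOSCA, -1.15 for H2AC25, -0.55 for H2AC20, -0.37 for H3C11 and 0.81 for H2BC21. In APP cells 39 of the 56 fell and none rose, where 7.06% of all genes were called lower and 4.72% higher.

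A few members of the neuronal lists were called, where 1.97% of all genes were. INSM1, a zinc-finger factor of neuroendocrine cells, measured 7.13, 8.05 and 8.35 under vehicle and 6.63, 7.19 and 6.95 under AG494, with an overlap, and fell in all 3 runs (-0.92, SE 0.18, adjusted p = 0.0136). It was the 1 of 23 noradrenergic factors called. CPLX1, complexin, which clamps synaptic vesicles before release, went from 9.86, 10.08 and 10.01 to 9.38, 9.42 and 9.55 without overlap (-0.54, SE 0.10, adjusted p = 0.00781), the 1 of 33 vesicle genes called. Among 24 neuropeptides and granins PCSK1N, an inhibitor of prohormone convertase, fell by 0.55 and SCG3, a granin of secretory granules, by 0.29, while CHGB, another granin, rose by 0.39 in arrays that did not overlap. INSM1 lost its call without the third WT_AG494 or the second WT_DMSO array, and CPLX1 without the third WT_AG494 array. None of these 5 passed without the block, with adjusted p-values of 0.18 for INSM1, 0.18 for CPLX1, 0.27 for PCSK1N, 0.30 for SCG3 and 0.22 for CHGB.

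In the lists of neurotrophin and GDNF receptors and of calcium and sodium channels 4 genes were called, all higher. Over all genes 1.09% were called higher. GFRA1, the receptor that binds GDNF, measured 8.68, 8.99 and 8.96 under vehicle and 9.47, 9.42 and 9.51 under AG494, above every vehicle array (0.59, SE 0.11, adjusted p = 0.0105), and IGF1R, the receptor of insulin-like growth factor, rose by 0.32. These were the 2 called of 20 neurotrophin and GDNF receptor genes, and GFRA1 passed without the block. The sodium channel genes SCN9A (0.51) and SCN2A (0.41) were 2 of 25 calcium and sodium channels, and none of 25 potassium channels or 33 cytoskeletal genes was called. MAOB was the 1 called of 20 genes of catecholamine handling, and stood at 0.60 with NOSCA and 1.07 with PALBO against the same vehicle. GSAP, known as a protein that activates gamma-secretase, rose by 0.66 as the 1 of 22 genes of amyloid precursor processing, and by 0.42 in APP cells. APP itself was at 12.49, 12.61 and 12.61 under vehicle and 12.51, 12.46 and 12.63 under AG494, with a difference of -0.04 (95% interval -0.18 to 0.10).

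Of 48 matrix and adhesion genes SPARC, a matrix glycoprotein, rose by 0.43, and CD9, LOXL2, a collagen cross-linking enzyme (-0.59), and COL6A2, a collagen VI chain (-0.39), fell. Of all genes 1.09% were called higher and 0.888% lower. SPARC measured 12.03, 11.77 and 11.68 under vehicle and 12.34, 12.19 and 12.23 under AG494, just apart, and all 8 probe sets were higher. COL6A2 was at odds within itself, since 3 of its 4 probe sets had a value above 0. NOTCH2, a receptor of the Notch pathway, rose by 0.31 as the 1 of 29 genes of the mesenchymal list. CD9 alone among these passed without the block.

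Stress and energy lists held a few calls, where 1.97% of all genes were called. MANF, a secreted protein of the endoplasmic reticulum, measured 12.18, 12.07 and 11.89 under vehicle and 11.88, 11.77 and 11.57 under AG494, and the difference was nearly the same in the 3 runs, at -0.31, -0.31 and -0.33 (adjusted p = 0.00709). It was the 1 called of 24 genes of the unfolded protein response, and had an adjusted p of 0.25 without the block. Of 29 glycolysis and hypoxia genes PFKFB4, a regulator of glycolytic flux (-0.58), and SLC2A1, the glucose transporter (-0.56), fell. In that list 25 were below 0, with a median of -0.15, where 9424 of all 18132 genes were below 0. That list's median against the shared vehicle was -0.14 with NOSCA and -0.16 with PALBO. Its median direct difference between AG494 and NOSCA was 0.02. Of 37 lysosome genes GPNMB and ATP6V0D1, a subunit of the proton pump (0.27), rose. Of 25 p53 targets PLK2, a stress-induced kinase, rose by 0.45 and GADD45A, a growth-arrest gene, fell by 0.60, the last with -0.97, -0.83 and 0.01 in the runs. No member was called among 28 NRF2 targets, 27 ATF4 targets, 16 heat shock genes, 12 iron genes, 11 targets of the aryl hydrocarbon receptor, 26 retinoic acid targets, 34 respiratory chain subunits or 45 ribosomal protein genes.

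**Figure D5:**
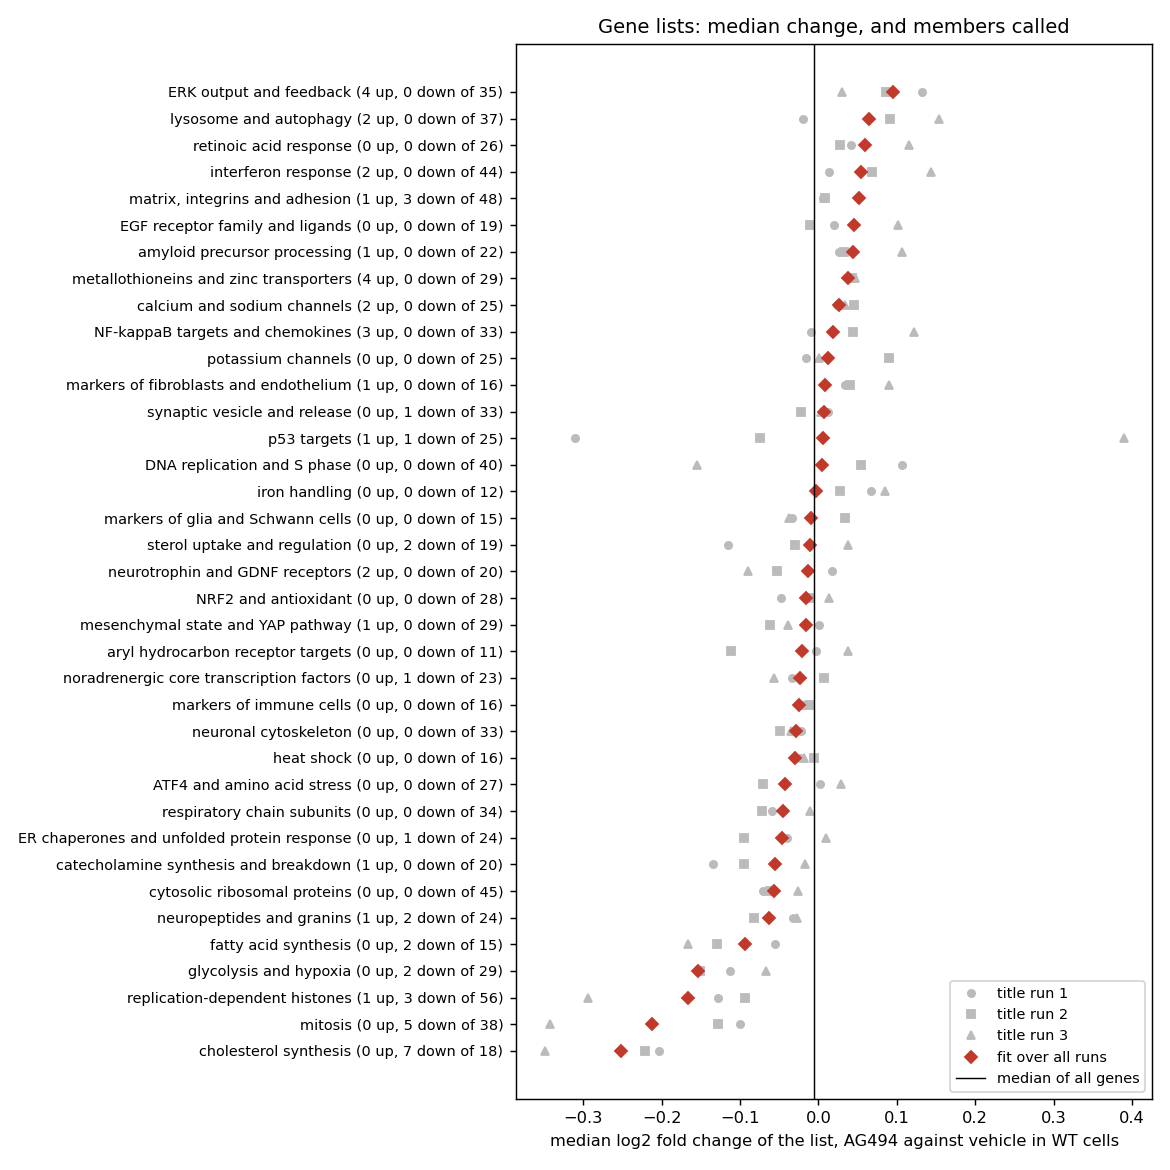
Median log2 fold change of each gene list under AG494 in WT cells (x axis), for the fit (diamonds) and for each run (grey markers), with the members called higher and lower of those measured beside each list's name (y axis) and a line at the median of all genes. Cholesterol synthesis at -0.25 and mitosis at -0.21 lie farthest left, and the runs of the p53 targets spread from -0.31 to 0.39.

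The response to AG494 differed between WT and APP cells for 229 genes (1.26%), by the test of the difference itself. Of the 197 WT risers 14 were among them and of the 161 fallers 16. Of the 6 genes with the lowest p-values 5 were not called in WT cells, and the other, INSM1, fell in both genotypes. EBF3, with the lowest of all, a transcription factor of the early B-cell factor family, measured 7.89, 7.84 and 8.07 in WT_DMSO and 7.64, 7.55 and 7.68 in WT_AG494 (-0.31, adjusted p = 0.102), whereas in APP cells it fell by 1.99, from 9.72, 10.02 and 10.16 to 7.88, 7.88 and 8.17. MANF went opposite ways, at -0.31 in WT and 0.24 in APP cells, called in both. TMEFF2 did so too, at 0.67 in WT and -0.37 in APP cells. Without the block the difference was called for 7 genes, and without single arrays for 50 (the third APP_AG494 array) to 462 (the third WT_DMSO array).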

How the data were processed

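The deposited values are log2 intensities and were used unchanged; the submitters' processing notes name RMA and affy without versions. RNA (25 ng) was amplified and 8 µg of cDNA labelled, per the labels' protocols. Of 49372 probe sets 79 controls were left out, and 44988 had 1 symbol, 1832 several and 2473 none in the platform annotation; 44961 were found in RefSeq through their Entrez ID. Each of the 18132 genes, 11734 of which had several probe sets, was represented by the brightest one on average, with no filter on dim genes. Intensities carry no depth, and precision is limited by the number of arrays.

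All 21 arrays (7 groups of 3) entered 1 limma 3.58.1 fit (R 4.3.3, lmFit and eBayes, 12 residual and 4.638 prior degrees of freedom) with a coefficient per group and the run of title numbers as a block. The runs were taken as pairs because arrays of a run, in other groups, correlated in their deviations from group means (0.31, 0.48 and 0.62 for the vehicle and AG494 arrays of WT cells). Two-sided p-values were adjusted over all genes (Benjamini-Hochberg), with a threshold of 0.05, and intervals are 95% intervals of the fit. Gene names printed are the 15 largest called rises and falls with non-overlapping arrays and 1 sign in 3 runs, up to 6 called members of each list, all cholesterol and sterol genes, receptors of the EGF family, APP, lineage markers and the 6 lowest p of the interaction. The comparison, the gene lists and the rule were chosen with earlier results of these data known. Alternatives were no block, other summaries of probe sets, no dim genes, further normalisations, other priors and weights, a 1.5-fold minimum, only the arrays compared, and each array or run left out.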

Additional observations from a re-analysis of the deposited data

Results flagged for a closer look

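The AG494 response was flagged for 229 genes because it differed between WT and APP cells in the test of that difference. The values below are the WT response minus the APP response on the log2 scale. Of the genes called in WT cells 14 risers and 16 fallers passed, and only those picked by the naming rule or the NOSCA test are given. Among these the difference was positive for NTNG1 (1.37), MT1F (1.85), INSM1 (1.84) and TMEFF2 (1.03), and negative for H2AC25 (-0.84), LOC730098 (-0.62), SHKBP1 (-0.49), IL32 (-0.89), MANF (-0.55), PCSK1N (-0.67), CPLX1 (-0.76), COL6A2 (-0.59) and DKK2 (-0.42). INSM1 fell by 0.92 in WT cells and fell by 2.76 in APP cells, where it measured 9.56, 9.51 and 9.59 under vehicle and 6.61, 6.53 and 7.23 under AG494. IL32 and DKK2 rose in both and more in APP cells, by 1.46 and 0.88. NTNG1 rose by 0.98 in WT cells and was at -0.40 in APP cells.

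Of genes not called in WT cells, only those with the lowest p-values for this difference are given. The difference was 1.68 for EBF3, 1.09 for NPPC, a natriuretic peptide gene, 1.84 for RGS8, a regulator of G-protein signalling, 0.89 for ZIK1, a zinc-finger gene, and -1.20 for KDELR3, a receptor that returns proteins to the endoplasmic reticulum. All except KDELR3 fell in APP cells.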

How the results depend on the processing

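Genes called for AG494 in WT cells, in APP cells, for the difference between genotypes, against NOSCA and against PALBO, in this order, changed with the processing as follows. Without the replicate block, which pairs the arrays of a run, they were 46, 861, 7, 2 and 589; at a minimum of 1.5-fold 76, 358, 113, 3 and 290. With only the groups compared in the fit the first 4 were 32, 1093, 18 and 1. All probe sets gave 771, 4979, 484, 23 and 3546. Averaging the probe sets of each gene gave 383 for the difference between genotypes and 14 against NOSCA; without the dimmest 33.3% of genes it was 587 in WT cells and 10 against NOSCA; a trended and robust prior gave 595 in WT cells, 427 for the difference and 31 against NOSCA; array weights gave 567, 3786, 753 and 25 for the first 4. Leaving out single arrays or runs gave 16 to 538 in WT cells, 558 to 1988 in APP cells, 2 to 462 for the difference, 0 to 26 against NOSCA and 413 to 1251 against PALBO. Centring the arrays on their medians moved the share of higher calls from 40.1% to 53.2% in APP cells and from 58.5% to 41.7% for the difference between genotypes. Averaging probe sets gave 69.7% higher for that difference.

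Of the 83 named genes called in WT cells none reversed under any alternative. All 83 passed after a second quantile normalisation, 82 with centring, 70 with the mean of the probe sets, 23 without the block and 19 with only the 6 arrays; without run 2 it was 9. The median of the cholesterol synthesis list lay between -0.31 and -0.21 over the alternatives. The cause of these shifts was not tested.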

Other observations

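TH, tyrosine hydroxylase, the first enzyme of catecholamine synthesis, measured 9.61, 9.29 and 7.91 in the vehicle arrays and 8.64, 8.41 and 7.04 under AG494. The difference was nearly the same in each run, at -0.96, -0.88 and -0.87, although the level of run 3 was far below the others, and limma, whose spread is taken over all 7 groups, gave -0.91 with an SE of 0.35 and an adjusted p of 0.214. With NOSCA the gene stood at 8.27, 9.28 and 7.43. In APP cells it measured 8.16, 8.05 and 8.04 under vehicle and 7.52, 7.50 and 7.51 under AG494, a difference of -0.58 (adjusted p = 0.342).

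Ribosomal protein genes, of which none was called, had 41 of 45 values below 0, where 9424 of all 18132 genes lay below 0. Their median was -0.06, and the arrays of the groups did not overlap downwards for 14 of the 45, where 5.76% of all genes did so. Their median against the shared vehicle was -0.05 with NOSCA and -0.02 with PALBO, and -0.005 for AG494 directly against NOSCA. The p53 targets had a median of 0.0052 in the fit and of -0.31, -0.07 and 0.39 in the runs, and 13 of the 25 were above 0.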
